A study of Homo sapiens with 8 samples.

Results

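The collagen genes were read in lung cancer cell lines on 8 Agilent expression arrays, each hybridized with 2 RNAs. The genes taken were those whose current symbol is COL, a number, A and a number, with antisense transcripts and pseudogenes left out. All 44 such genes had at least 1 probe, among 22439 genes that could be named on the array. They were read by 57 probes, with 1 probe for 33 genes and more for 11. Treated RNA carried Cy5 (red) and RNA of control cells of the same line carried Cy3 (green), with no dye swap, and all arrays lay on 1 slide. A value is the log2 ratio of red over green, so a positive value means a higher level after treatment. A dye bias of a single gene would move its ratio the same way on all arrays, and it was not removed from the values below.

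The treatments were a microRNA, siRNAs and genome editing, and the cell lines and controls differ between them. The A549 arrays (A549-GE1, A549-GE2 and A549-GE3) set lung adenocarcinoma cells in which *LOXL2* was edited with CRISPR/Cas9 against A549 cells without editing. The labels give neither the edited site nor whether the 3 lines are clones. The EBC-1 and SK-MES-1 arrays, 1 for each line, set *miR-150-3p* transfectants of lung squamous cell carcinoma (LUSQ) cells against cells of the same line. The SBC-3 arrays set small cell lung cancer cells transfected with siDONSON-1, siDONSON-2 or siDONSON-3, siRNAs against *DONSON*, against SBC-3 cells. The controls of the transfections are called both mock and untransfected in the labels, which name no control duplex and no time after transfection. The green channels of SBC-3 may be the same RNA, as may those of A549, and then the p-values leave out the spread of that control. Within a group, the *miR-150-3p* arrays differ in cell line and the siDONSON arrays in siRNA, so their spread includes those differences. For the A549 arrays nothing says that the control cells came from separate cultures. The p-values use a spread between arrays that 1 fit shares over the 3 groups, and it cannot be taken as a spread between cultures. Since each array holds RNA from many cells, fewer cells with a transcript and less RNA per cell cannot be told apart.

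Collagens are secreted or membrane-bound proteins whose chains wind into a triple helix, and each gene codes for a chain. Fibrillar collagens form fibrils in the matrix around cells, the type IV chains form the sheet of the basement membrane, and the fibril-associated collagens (FACIT) lie on the surface of fibrils. Chains are hydroxylated and assembled in the endoplasmic reticulum, trimmed outside the cell and cross-linked by lysyl oxidases, to which LOXL2 belongs. LOXL2 is known to act on type IV collagen. In carcinomas much of the collagen is made by fibroblasts, while the labels of these arrays name cultured cancer cell lines only.

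The *COL4A1* and *COL4A2* genes start head to head from a shared stretch of DNA, and they moved together on the A549 arrays. That stretch, which both genes share as their promoter, is shown with the upstream sequences of *COL12A1* and *COL5A1*, which rose on the same arrays. Promoters of 32 of the 44 genes were in the RefSeq table of build GRCh38.p14. The interval between the *COL4A1* and *COL4A2* starts covers 126 bases at chr13:110307158-110307283 and is read on the plus strand, with *COL4A2* starting after its last base and *COL4A1* read from the other strand. The *COL12A1* sequence is the 250 bases before the start at chr6:75206054-75206303 on the minus strand. The *COL5A1* sequence is the 250 bases before the start at chr9:134641553-134641802 on the plus strand. Capitals mark matches on either strand to the motif known as the GC box, whose letters are GGGCGG, or to the CCAAT box, named after its letters. The third motif searched, on both strands as well, was the TATA box, spelled TATAAA.
COL4A1 to COL4A2: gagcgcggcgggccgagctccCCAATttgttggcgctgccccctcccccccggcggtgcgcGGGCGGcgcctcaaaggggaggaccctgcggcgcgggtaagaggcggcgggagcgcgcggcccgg
COL12A1: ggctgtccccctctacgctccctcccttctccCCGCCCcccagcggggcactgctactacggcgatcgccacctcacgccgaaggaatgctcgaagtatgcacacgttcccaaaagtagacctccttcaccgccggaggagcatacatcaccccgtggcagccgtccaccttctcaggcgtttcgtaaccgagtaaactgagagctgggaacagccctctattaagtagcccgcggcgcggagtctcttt
COL5A1: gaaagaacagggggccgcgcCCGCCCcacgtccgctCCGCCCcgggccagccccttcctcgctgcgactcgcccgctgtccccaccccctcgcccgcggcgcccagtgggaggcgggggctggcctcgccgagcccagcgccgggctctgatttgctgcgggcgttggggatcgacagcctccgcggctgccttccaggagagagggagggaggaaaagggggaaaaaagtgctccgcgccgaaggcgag

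The interval of *COL4A1* and *COL4A2* held 1 GC box and 1 CCAAT box. Of all 35116 promoters in the table, 34.6% held a GC box and 21.1% a CCAAT box in the last 126 bases before the start. The *COL12A1* sequence held 1 GC box and the *COL5A1* sequence 2, and 42.6% of all promoters held one in 250 bases. None of the 3 sequences held the TATA letters, which 10.7% of all promoters did in 250 bases and 5.87% in 126 bases. GC made up 80.2% of the interval, 61.2% of the *COL12A1* sequence and 74% of the *COL5A1* sequence. The motifs do not overlap each other in these sequences, and a match is a description of letters only.

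On each array, only probes that the software marked as well above background, in red or in green, were counted, and the counted probes of a gene were averaged. Of the 44 genes, 37 were counted on at least 1 array and 17 on all 8. The 7 genes counted on no array were *COL3A1*, *COL6A3*, *COL6A5*, *COL6A6*, *COL11A1*, *COL19A1* and *COL25A1*. Among them, *COL3A1* codes for the chain of type III collagen and *COL6A3* for the largest chain of type VI. Between 24 genes (EBC-1) and 29 genes (siDONSON-1) were counted on an array, 3 to 6 of them in the red channel only. A gene that is dim in green and counted through red alone passed the filter on its treated side, so the numbers of higher and lower genes below cover counted genes, not all 44. Over all spots, 41.1% to 46.4% passed that mark in green and 48.5% to 56.2% in red.

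**Figure D1:**
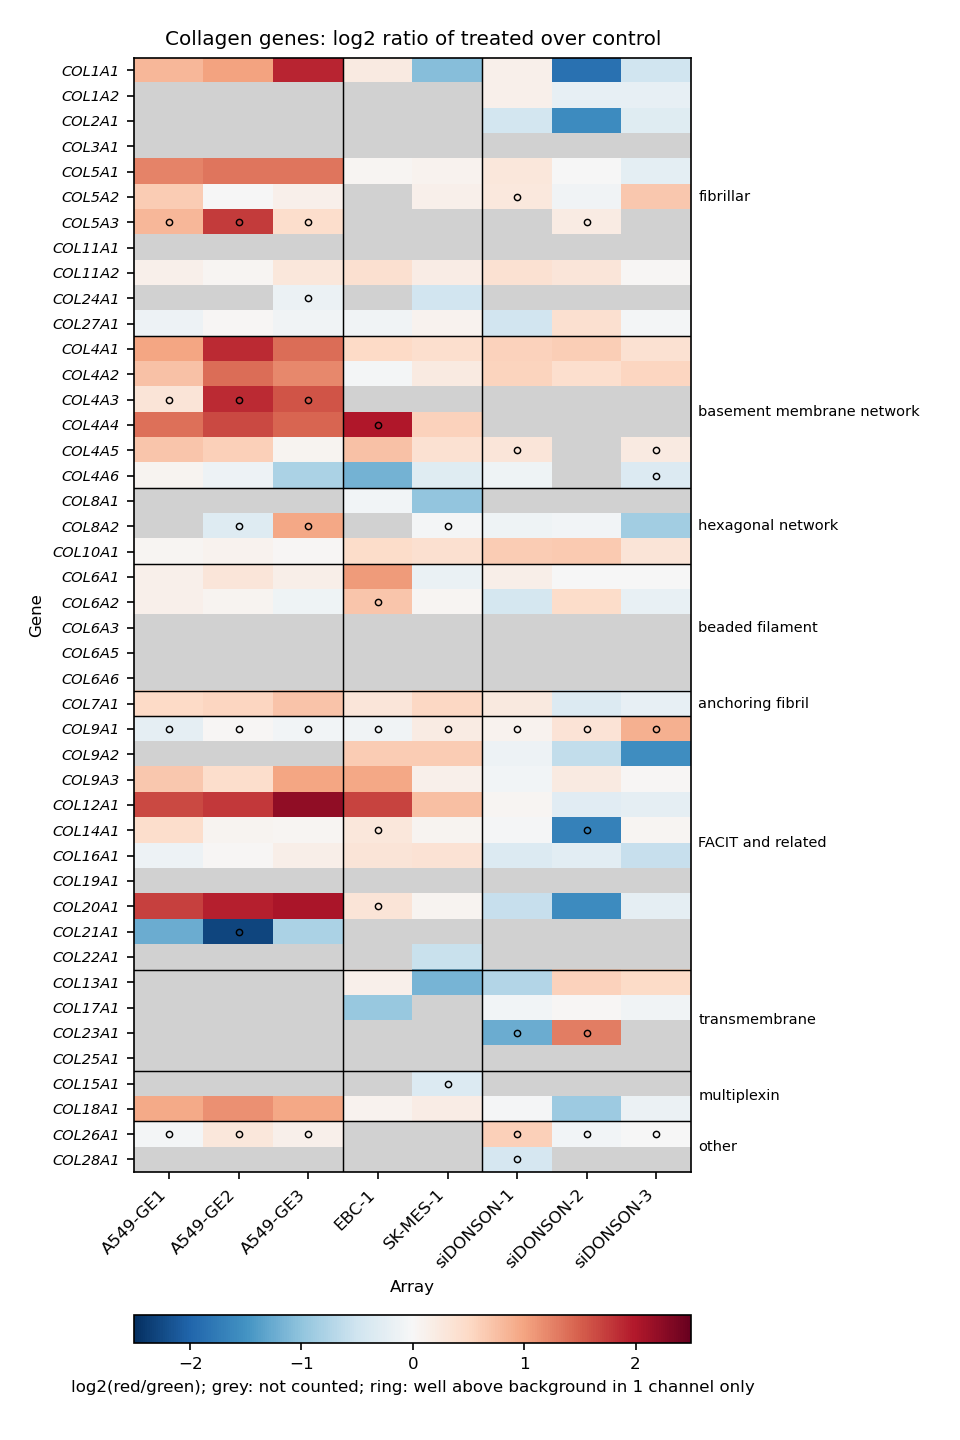
The log2 ratio of red (treated) over green (control) is shown by color for the 44 collagen genes (rows, by class) on the 8 arrays (columns). Grey cells were not counted, and a ring marks a gene well above background in 1 channel only. The A549-GE columns hold most of the strong red cells, *COL12A1* is red in 5 columns, and siDONSON-2 holds most of the strong blue cells among the SBC-3 arrays.

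In A549 cells with *LOXL2* edited, chains of the basement membrane, FACIT collagens and 1 fibrillar chain rose. Of the 25 collagen genes tested, 9 were higher (36%) and 1 was lower (4%) with limma at an adjusted p threshold of 0.05. Among all 15531 genes tested there, 7.58% were higher and 6.77% were lower. The median log2 ratio of the 25 genes was 0.45, against 0.022 over all genes, and 21 of the 25 lay above 0, against 53.4% of all genes. The medians on the single arrays were 0.49, 0.37 and 0.28. *COL4A3*, *COL5A3*, *COL9A1* and *COL26A1* were counted through red alone on all 3 arrays. They entered only on the treated side, which favors higher values in these medians and in the number above 0. The genes that rose were *COL12A1*, *COL20A1*, *COL4A4*, *COL4A1*, *COL5A1*, *COL4A2*, *COL18A1*, *COL9A3* and *COL7A1*, and the gene that fell was *COL21A1*. *LOXL2* itself, the targeted gene, was at -2.49, -2.67 and -2.59. Its mean was -2.58 (SE 0.23, n = 3, limma adjusted p = 0.00126). Whether its probe lies at the edited site is not given, so its value checks the label only in part.

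**Figure D2:**
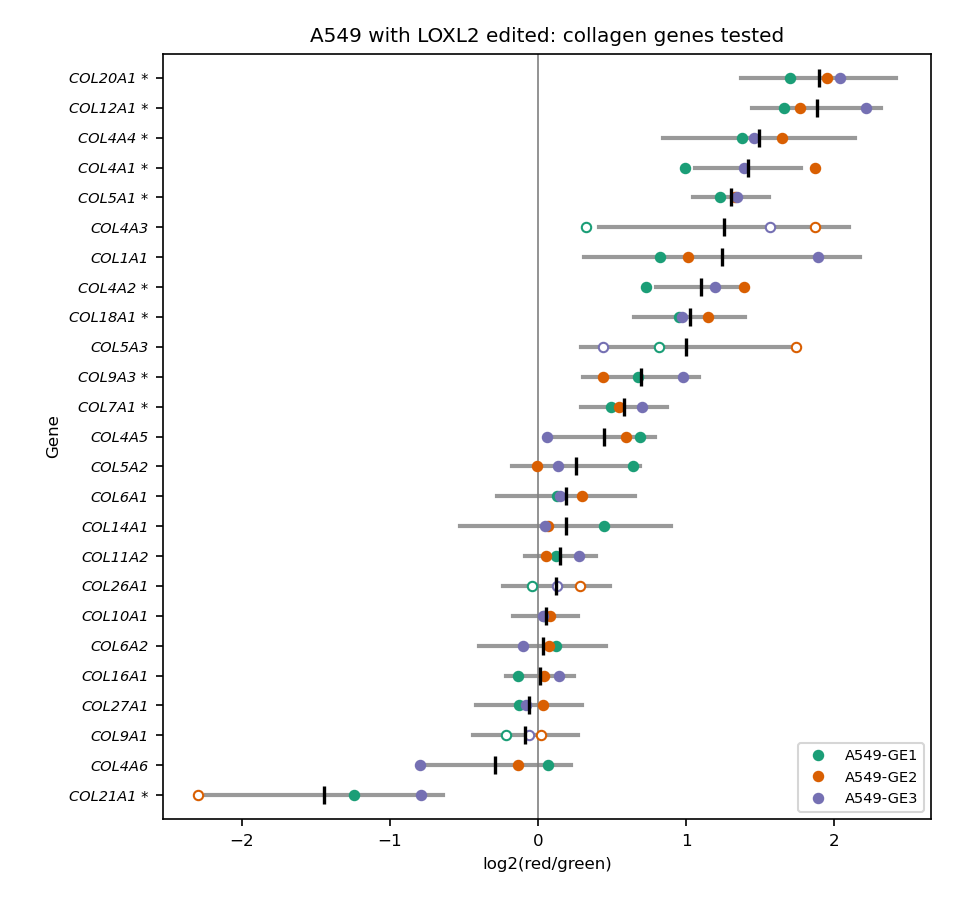
The log2 ratio of *LOXL2*-edited over control A549 cells is shown for the 25 collagen genes tested, with a point for each of the 3 arrays, a black tick for the mean and a grey bar for the 95% confidence interval of the limma fit. Open points were well above background in 1 channel only, and an asterisk marks an adjusted p under 0.05. All 3 points of the 9 higher genes lie above 0, and those of *COL21A1* lie below 0.

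*COL4A1* and *COL4A2* code for the chains of the main type IV collagen found in nearly all basement membranes. *COL4A1* was at 1.0, 1.87 and 1.39 on the A549-GE1, A549-GE2 and A549-GE3 arrays, and averaged 1.42 (SE 0.15, 2.68-fold, adjusted p = 0.00241). *COL4A2* was at 0.73, 1.39 and 1.19, and averaged 1.1 (SE 0.13, 2.15-fold, adjusted p = 0.0033). For both genes of this pair, A549-GE1 was the lowest array and A549-GE2 the highest, and no array was near 0.

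*COL4A3* and *COL4A4* are a second head-to-head pair, whose chains join with that of *COL4A5* in the basement membranes of kidney and lung. *COL4A4* was at 1.38, 1.65 and 1.46, and averaged 1.5 (SE 0.26, 2.82-fold, adjusted p = 0.0202), in a fit that lacked 3 arrays of the other groups. *COL4A3* was well above background in red alone on all 3 arrays, at 0.32, 1.87 and 1.57, and it missed the threshold (mean 1.25, SE 0.32, adjusted p = 0.0702). Since its green signal gives only a bound, its mean level after editing was at least 1.05-fold higher, with a measured level of 4.57 in red and 3.31 in green. Of the pair on the X chromosome, *COL4A5* was at 0.69, 0.59 and 0.06 (adjusted p = 0.0855) and *COL4A6* at 0.07, -0.13 and -0.80 (adjusted p = 0.416). Thus 3 of the 6 type IV genes rose, and the other 3 did not pass the test.

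Among the FACIT collagens, 7 of the 10 genes were tested, of which 3 rose and 1 fell. *COL12A1*, whose product links fibrils to other matrix proteins, was at 1.66, 1.77 and 2.22, and its mean was 1.88 (SE 0.19, 3.69-fold, adjusted p = 0.00185). Its brighter probe was well above background in both channels, at 1.27, 1.85 and 1.75. Its dimmer probe was above background in red only, at 2.05, 1.69 and 2.69. *COL20A1* was at 1.70, 1.95 and 2.04, and averaged 1.90 (SE 0.23, 3.72-fold, adjusted p = 0.00311). It too has 2 probes, at 2.08, 2.44 and 2.40 for the brighter and at 1.32, 1.47 and 1.68 for the dimmer, so the probes gave the same direction on all 3 arrays but differed in size.

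*COL9A3*, a chain of the type IX collagen of cartilage, was at 0.67, 0.44 and 0.98 (mean 0.70, SE 0.17, adjusted p = 0.0331). The other type IX chain tested, *COL9A1*, was at -0.22, 0.02 and -0.06 and was dim in green. *COL21A1* was at -1.24, -2.30 and -0.79 and had the lowest mean of the 25 genes, -1.44 (SE 0.31, adjusted p = 0.0451), in a fit with no values from the 5 other arrays. On A549-GE2 it measured 4.91-fold lower, but its red signal was not well above background, so the size there is uncertain. A549-GE1 and A549-GE3 measured both channels. *COL14A1* (0.45, 0.07 and 0.04) and *COL16A1* (-0.14, 0.04 and 0.14) did not pass the test. The probes of *COL16A1* had opposite signs on A549-GE1, at 0.23 and -0.50.

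Among fibrillar collagens, *COL5A1* codes for the main chain of type V, which lies inside type I fibrils and limits their width. It was at 1.23, 1.33 and 1.34, and averaged 1.30 (SE 0.11, 2.47-fold, adjusted p = 0.00103), the lowest p of the 25 genes. Both of its probes were above background in both channels, between 1.07 and 1.40 over the arrays. Its partner *COL5A2* was at 0.64, -0.01 and 0.13 (adjusted p = 0.386), so the chains of type V collagen did not pass the test together. The difference between their means was not tested. *COL5A3* was above background in red alone, at 0.82, 1.74 and 0.44 (adjusted p = 0.0779), and was at least 1.16-fold higher on average.

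*COL1A1*, which codes for the main chain of type I collagen, was at 0.82, 1.0 and 1.89 and missed the threshold (mean 1.24, SE 0.40, adjusted p = 0.0775). With the spread taken from the A549 arrays alone, its adjusted p was 0.033. Its partner chain gene *COL1A2* was not counted on any A549 array. *COL11A2* (0.12, 0.05 and 0.28) and *COL27A1* (-0.13, 0.03 and -0.08), both well above background throughout, lay near 0. Of the 11 fibrillar genes, 6 were tested and 1 rose.

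*COL18A1*, a collagen of basement membranes whose end is released as endostatin, was at 0.96, 1.15 and 0.97 (mean 1.03, SE 0.16, 2.04-fold, adjusted p = 0.00826). *COL7A1*, the anchoring fibril collagen, was at 0.49, 0.55 and 0.70 (mean 0.58, SE 0.13, 1.5-fold, adjusted p = 0.0226). The range between arrays was narrow for both genes, and no array reached 0. The type VI genes *COL6A1* (0.13, 0.30 and 0.15) and *COL6A2* (0.12, 0.07 and -0.10) did not pass the test, nor did *COL10A1* (0.04, 0.08 and 0.03) and *COL26A1* (-0.04, 0.28 and 0.13). No transmembrane collagen was tested in A549 cells. *COL8A2* (-0.32 on A549-GE2 and 0.96 on A549-GE3) and *COL24A1* (-0.14 on A549-GE3) were counted in red only on some arrays and were not tested. The 95% confidence interval of the mean was -0.27 to 0.66 for *COL6A1* and -0.17 to 0.27 for *COL10A1*, so changes within those limits are not excluded.

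The calls differed in how they held. *COL12A1*, *COL20A1*, *COL4A1*, *COL4A2* and *COL5A1* passed the test under all 14 alternatives of the processing and fit, with adjusted p up to 0.0338. Their size did not hold in the same way, since under normexp and loess *COL12A1* was at 0.69 in place of 1.88 and *COL20A1* at 0.77 in place of 1.90. *COL9A3* (0.22) and *COL21A1* (-0.18) were also nearer to 0 there and lost the call. *COL18A1* lost the call when A549-GE2 or A549-GE3 was left out (adjusted p up to 0.0649). *COL4A4*, *COL7A1*, *COL9A3* and *COL21A1* each lost it when any 1 of the 3 arrays was left out, and over all their alternatives adjusted p reached 0.114, 0.138, 0.242 and 0.151. Of the 10 calls, 5 remained without A549-GE2 and the same 5 without A549-GE3.

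Genes that process, bind or sense collagens were read beside them. Of 47 such genes, 34 were tested, of which 0 rose and 4 fell on the A549 arrays, where 7.58% of all genes were higher and 6.77% lower. One of the 4 is the edited gene itself, and the median of the 34 was 0.057. Besides *LOXL2*, these were *P3H2* (-0.58, -0.45 and -0.31, adjusted p = 0.0239) and *P3H3* (-0.88, -0.15 and -0.85, adjusted p = 0.0488), members of the prolyl 3-hydroxylase family, and the collagen receptor chain *ITGA10* (-0.72, -0.85 and -0.51, adjusted p = 0.0414). *ITGA1*, another collagen receptor chain, was above background in red only, at -0.01, 1.99 and 2.57 (adjusted p = 0.0989), and was at least 2.24-fold higher on average. *SPARC*, which binds collagen outside the cell, was at -0.96, -1.15 and 0.61 (adjusted p = 0.56). The other lysyl oxidases tested there, *LOXL1*, *LOXL3* and *LOXL4*, did not pass the test.

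Markers of the cell type moved on the same arrays. Of 5 epithelial markers, *EPCAM* (-3.11, -2.27 and -1.90), *KRT8*, *KRT18* and *KRT19* fell and *CDH1* (0.97, 1.61 and 1.51) rose. The summed level of the 5, as log2 of the sum, was 18.1 in green on each array and 17.3 to 17.4 in red. Of 6 fibroblast markers, 2 were tested and 0 were called, and *DCN* and *LUM* were not detected in A549 cells. The fibroblast sum was 9.17 to 9.27 in green and 9.0 to 9.38 in red. The part of the epithelial markers' change in the collagen result was not tested. Of the alveolar type II markers, 1 of 2 tested, *NAPSA*, rose. The other, *SFTPC*, was not called, and in green it was well above background on A549-GE1 and A549-GE2 but not on A549-GE3. *SFTPA1*, *SFTPB* and *NKX2-1* were not detected in A549 controls. Of the squamous and of the neuroendocrine markers, 2 each were tested and 0 were called.

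In LUSQ cells transfected with *miR-150-3p*, *COL12A1* was the collagen that passed the test over both lines. Of 23 collagen genes tested, 1 was higher and 0 were lower, and among all 14230 genes 2.47% were higher and 2.9% lower. The median of the 23 genes was 0.29, against 0.035 over all genes, and 18 of the 23 lay above 0, against 53.9% of all genes. Counted through red alone were *COL4A4*, *COL6A2*, *COL14A1* and *COL20A1* in EBC-1 and *COL9A1* in both lines. They entered only on the treated side, which favors higher values in the median and in the number above 0. *COL12A1* was at 1.70 in EBC-1 (software error 0.30) and 0.76 in SK-MES-1 (software error 0.15), and averaged 1.23 (SE 0.23, n = 2, 2.34-fold, adjusted p = 0.0332). Both lines were above 0, and EBC-1 was the higher. The EBC-1 value rests on 1 of the 2 probes of *COL12A1*. Its green level of 5.67 was near the detection limit of 5.22 on that array. The other probe was there well above background in neither channel. Under normexp and loess the mean was 0.45 and still passed (adjusted p = 0.025). Without EBC-1 the adjusted p was 0.236, and without SK-MES-1 it was 0.00571, each in a fit that gives a lone array the spread of the other groups. After subtraction of the arrays of other treatments, where *COL12A1* was also high in A549, its value was 0.36 (adjusted p = 0.447).

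With 1 array per line, the lines were also described singly. In EBC-1, 3 of 24 collagen genes had a log2 ratio of at least 1 (12.5%) and 1 had -1 or less, against 5.96% and 6.04% of all 14759 genes on that array. The higher genes were *COL12A1*, *COL4A4* and *COL6A1*, of which *COL4A4* was counted through red alone. With both channels required, 2 of 19 genes were higher. *COL6A1*, a type VI chain, was at 1.07 (EBC-1) and -0.17 (SK-MES-1), and its neighbor *COL6A2* was at 0.70 (red only) and 0.05. *COL4A4* was at 2.00 in EBC-1, where its green signal was not well above background, and 0.58 in SK-MES-1 (mean adjusted p = 0.0717). The bound on its rise in EBC-1 was under 1, so no fold is given. The lower gene was *COL4A6*, at -1.17 (EBC-1) and -0.31 (SK-MES-1) (adjusted p = 0.12), while *COL4A5*, its head-to-head neighbor, was at 0.72 and 0.38. Under the normexp and loess processing, 1 of these 4 genes, *COL6A1*, stayed past 2-fold in EBC-1.

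In SK-MES-1, 0 of 28 collagen genes were at 1 or above and 2 were at -1 or below (7.14%), against 1.27% of all 16178 genes for the lower side. These were *COL13A1*, a transmembrane collagen (-1.17 in SK-MES-1 and 0.13 in EBC-1), and *COL1A1* (-1.06 and 0.23). *COL8A1*, a chain of the network beneath endothelium, was close to that limit at -0.98, and at -0.07 in EBC-1. For these 3 genes the EBC-1 value was no farther from 0 than the 95% limits that its software error gives, and the difference between the lines was not tested. *COL17A1*, the hemidesmosome collagen, was at -0.95 in EBC-1 and not counted in SK-MES-1. Under normexp and loess, 0 genes in SK-MES-1 were past 2-fold.

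Several collagens had similar values in both lines. *COL4A1* was at 0.49 and 0.41, *COL10A1* at 0.46 and 0.40, *COL16A1* at 0.31 and 0.35, *COL7A1* at 0.31 and 0.52, and *COL9A2* at 0.64 and 0.64 in EBC-1 and SK-MES-1. *COL9A3* was at 0.96 and 0.12. *COL4A2* (-0.05 and 0.23), *COL5A1* (0.05 and 0.08), *COL18A1* (0.10 and 0.18), *COL20A1* (0.31 and 0.08), *COL11A2* (0.40 and 0.19) and *COL27A1* (-0.09 and 0.09) lay closer to 0. None of these passed the test. *COL14A1* (0.28, red only, and 0.08) and *COL9A1* (-0.10 and 0.21, red only) were dim. Counted in SK-MES-1 alone were *COL22A1* at -0.56, *COL24A1* at -0.49, *COL15A1* at -0.33 (red only), *COL5A2* at 0.13 and *COL8A2* at -0.05 (red only).

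Of the processing and receptor genes, 34 were tested on these arrays, and 2 were called higher and 0 lower, against 2.47% and 2.9% of all genes. *BMP1*, which cleaves the end of procollagens, was at 0.82 and 0.55 (adjusted p = 0.0355). *LAIR1*, an inhibitory collagen receptor, was counted through red alone in both lines, so its call rests on green signals that were not well above background. It was at least 1.34-fold higher in SK-MES-1, and in EBC-1 its red signal was no higher than the green limit within rounding. *SPARC* was at 2.22 in EBC-1, in red only and at least 1.11-fold higher, and was not counted in SK-MES-1. Of 3 squamous markers tested, *KRT14* was called, at 1.13 in SK-MES-1. In EBC-1 it was counted through red alone, so no measured rise is given there. Of 4 epithelial, 2 alveolar type II and 1 fibroblast marker tested, 0 were called, and no neuroendocrine marker was tested. Of the fibroblast markers in EBC-1, *DCN* was at 4.55, in red only and at least 6.80-fold higher, and *PDGFRB* was at -0.39. The other fibroblast markers were not counted there. The lower of the sums of fibroblast markers of the lines was 6.88 in green and 8.43 in red, and *DCN* alone was at 7.99 in red in EBC-1. The part of these markers in the collagen values was not tested.

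**Figure D3:**
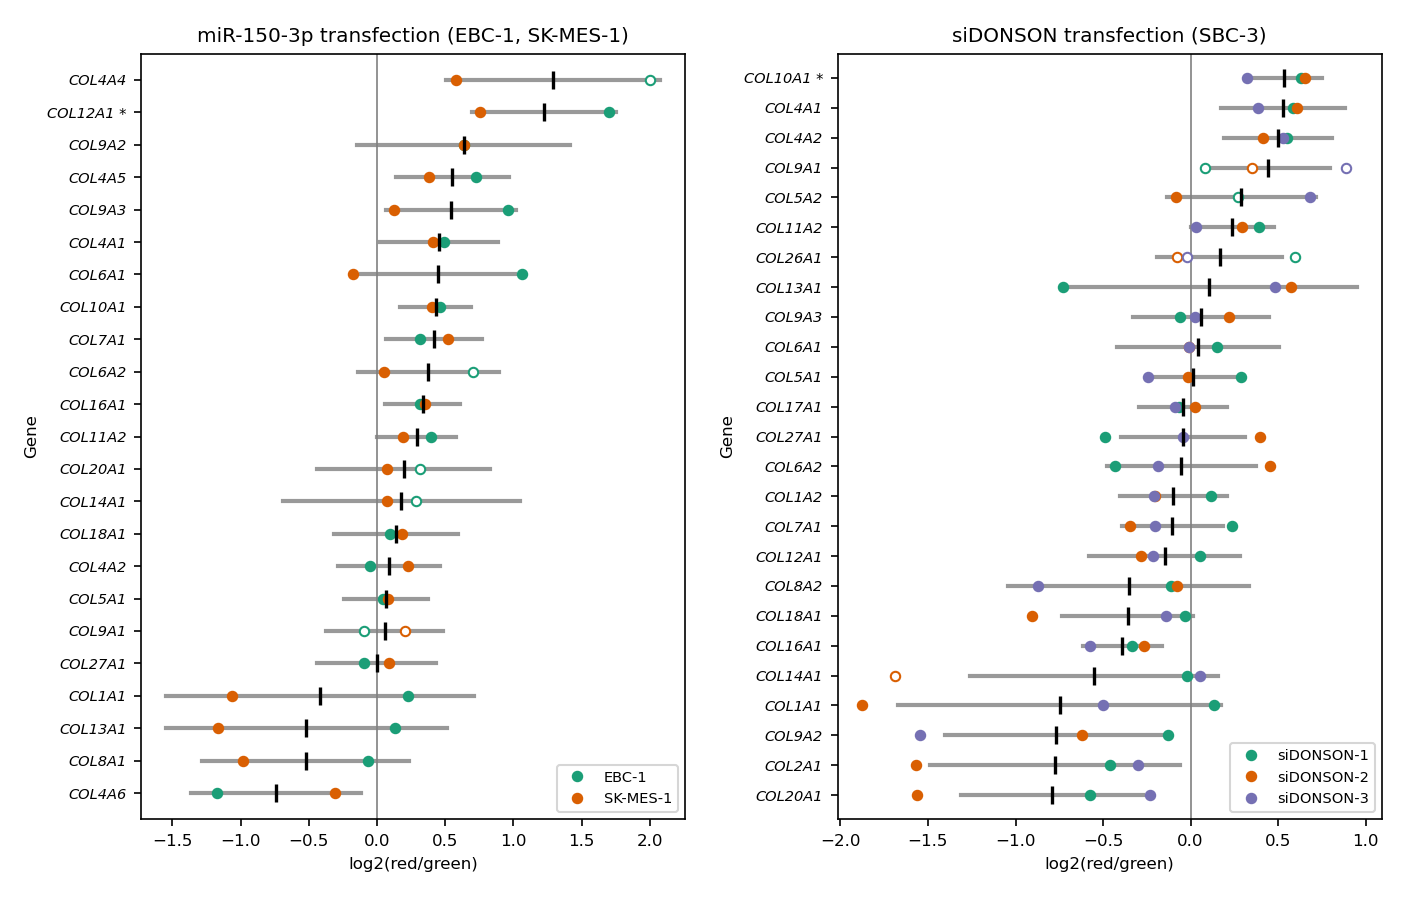
The log2 ratio of treated over control is shown for the 23 collagen genes tested after *miR-150-3p* (left, 2 arrays) and the 25 tested after siDONSON (right, 3 arrays), with a point per array, a black tick for the mean and a grey bar for the 95% confidence interval of the limma fit. Open points were well above background in 1 channel only, and an asterisk marks an adjusted p under 0.05. *COL12A1* and *COL10A1* carry the asterisks, and siDONSON-2 lies far left of the other siRNAs for *COL1A1*, *COL2A1*, *COL14A1* and *COL20A1*.

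In SBC-3 cells, the siRNAs against *DONSON* gave unlike collagen profiles. Of 25 genes tested, 1 rose and 0 fell, where 4.01% of all 14454 genes were higher and 3.21% lower. Their median was -0.044, against 0.031 over all genes, and 11 of the 25 lay above 0, against 54.5% of all genes. *DONSON* itself was at -2.15, -1.79 and -2.11 (mean -2.02, SE 0.16, adjusted p = 0.00168). The gene that rose was *COL10A1*, a short-chain collagen known from growth plate cartilage, at 0.63, 0.65 and 0.32 (mean 0.53, SE 0.093, 1.45-fold, adjusted p = 0.021). Its call was lost under 5 of 14 alternatives, among them without siDONSON-1 (adjusted p = 0.0691) and under normexp and loess, where it was at 0.11 (adjusted p = 0.121). It was also lost with the spread taken from the siDONSON arrays alone (adjusted p = 0.167). With the other arrays subtracted, *COL10A1* was at 0.33 and not called (adjusted p = 0.124). On those arrays it was at 0.46 and 0.40 after *miR-150-3p* and at 0.03 to 0.08 in A549.

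*COL4A1* (0.58, 0.61 and 0.38) and *COL4A2* (0.55, 0.41 and 0.53) lay above 0 with every siRNA but missed the threshold, with adjusted p of 0.0805 and 0.0635. The array that was lowest differed between the genes of the pair. *COL16A1* was at -0.34, -0.26 and -0.57 (adjusted p = 0.0528), and its brighter probe alone, at -0.87, -0.52 and -1.08, passed the test (adjusted p = 0.0113). The dimmer probe lay between -0.07 and 0.20. With each array centered on its median, *COL16A1* also passed (adjusted p = 0.0402), and the split of all calls turned from 580 higher and 464 lower to 445 and 536.

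The siDONSON-2 array stood apart from the others at the collagens. On it, 4 of 27 genes were at -1 or below (14.8%) and 1 was at 1 or above, against 2.84% and 2.87% of all 15124 genes. On siDONSON-1, 1 of 29 genes was at -1 or below, against 1.76% of all genes, and on siDONSON-3, 1 of 27, against 1.81%. *COL1A1* was at 0.13, -1.87 and -0.50 for siDONSON-1, siDONSON-2 and siDONSON-3. *COL2A1*, the chain of cartilage fibrils, was at -0.46, -1.57 and -0.30. *COL20A1* was at -0.57, -1.56 and -0.23, with both probes lower on siDONSON-2 (-2.11 and -1.02). For all 3 genes siDONSON-2 was clearly the lowest array.

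*COL14A1* was at -0.02, -1.69 and 0.05, but its siDONSON-2 value rests on 1 of its 2 probes, which was not well above background in red and was at least 2.45-fold lower. *COL18A1*, at -0.03, -0.90 and -0.14, was also lowest on siDONSON-2. *COL12A1* was at 0.05, -0.28 and -0.22, but on siDONSON-2 its bright probe was at -1.11. The dim probe was there above background in red alone, so the mean of -0.28 rests in part on a green signal that gives only a bound. *COL1A2*, whose chain pairs with that of *COL1A1*, was at 0.12, -0.20 and -0.21, so the type I genes were unlike on siDONSON-2. No adjusted p of these genes passed the threshold over the 3 siRNAs, and the lowest was 0.076 for *COL20A1*. With siDONSON-2 left out, 1 collagen was still called, *COL10A1*.

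*COL23A1*, a transmembrane collagen, was at -1.24 on siDONSON-1 (green only, so the size is uncertain). It was at 1.28 on siDONSON-2 (red only, at least 1.44-fold higher), and was not counted on siDONSON-3. *COL9A2* was at -0.13, -0.62 and -1.55, lowest with siDONSON-3, while *COL9A1* was at 0.08, 0.35 and 0.89 and dim in green, and *COL9A3* at -0.06, 0.22 and 0.03. Since *COL9A1* was counted through red alone on all 3 arrays, its direction is not known. *COL13A1* was at -0.73, 0.57 and 0.48, and *COL17A1*, bright in these cells, at -0.07, 0.02 and -0.09. *COL5A1* (0.29, -0.01 and -0.24), *COL5A2* (0.27, -0.08 and 0.68), *COL6A1* (0.15, -0.01 and -0.01), *COL6A2* (-0.43, 0.45 and -0.19), *COL7A1* (0.24, -0.35 and -0.20), *COL11A2* (0.39, 0.29 and 0.03), *COL27A1* (-0.49, 0.40 and -0.04), *COL8A2* (-0.11, -0.08 and -0.87) and *COL26A1* (0.59, -0.08 and -0.02, red only) did not pass the test. *COL4A5* (0.30 and 0.22, red only) and *COL4A6* (-0.11 and -0.33) were counted on siDONSON-1 and siDONSON-3, *COL28A1* on siDONSON-1 at -0.41 (red only) and *COL5A3* on siDONSON-2 at 0.20 (red only).

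Of the processing and receptor genes, 35 were tested in SBC-3 cells, and 0 rose and 2 fell, against 4.01% and 3.21% of all genes. *PPIB*, a folding enzyme of procollagen, was at -0.67, -0.58 and -0.74 (adjusted p = 0.0138). *MRC2*, a receptor that takes up collagen, was at -0.92, -0.47 and -0.44 (adjusted p = 0.0322). *FMOD*, a fibril-binding protein, was at 0.27, -1.84 and -1.69 (adjusted p = 0.216), and *SPARC* was at 1.22, -1.28 and 0.42. Of 3 epithelial markers tested, *KRT19* fell (-1.30, -1.73 and -1.14), and of 3 squamous, 3 neuroendocrine, 2 alveolar type II and 1 fibroblast marker 0 were called.

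Levels in the control cells were compared between lines for the same probe, the brightest of each gene, on the log2 scale of the green channel after normalization between arrays. They are a description, since EBC-1 and SK-MES-1 have 1 control each. The controls of SBC-3 and of A549 differed by at most 0.59 between arrays at the collagens detected. In controls, 13 collagen genes were detected in all 4 lines, 5 in 3 lines, 6 in 2, 6 in 1 and 14 in none. SK-MES-1 had the most detected collagens (24) and EBC-1 the fewest (19), with 21 each in SBC-3 and A549. Over all spots, too, the share above background in green was highest in SK-MES-1 (46.4%) and lowest in EBC-1 (41.1%). It was 42.2% to 43.0% in SBC-3 and 45.2% to 45.5% in A549, so the counts are not particular to collagens. SK-MES-1 was the highest line for 12 of 30 genes, SBC-3 for 8, A549 for 7 and EBC-1 for 3. The A549 count includes *COL14A1*, whose level of 5.51 was below the limit of 5.60 in SBC-3, so that A549 is not shown to be highest for it. Its other probe was well above background in green on every SBC-3 array (6.26, 5.59 and 5.92) and on no A549 array. The lines were ranked again with scaling to the 75th percentile, and all 30 genes had the same highest line.

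**Figure D4:**
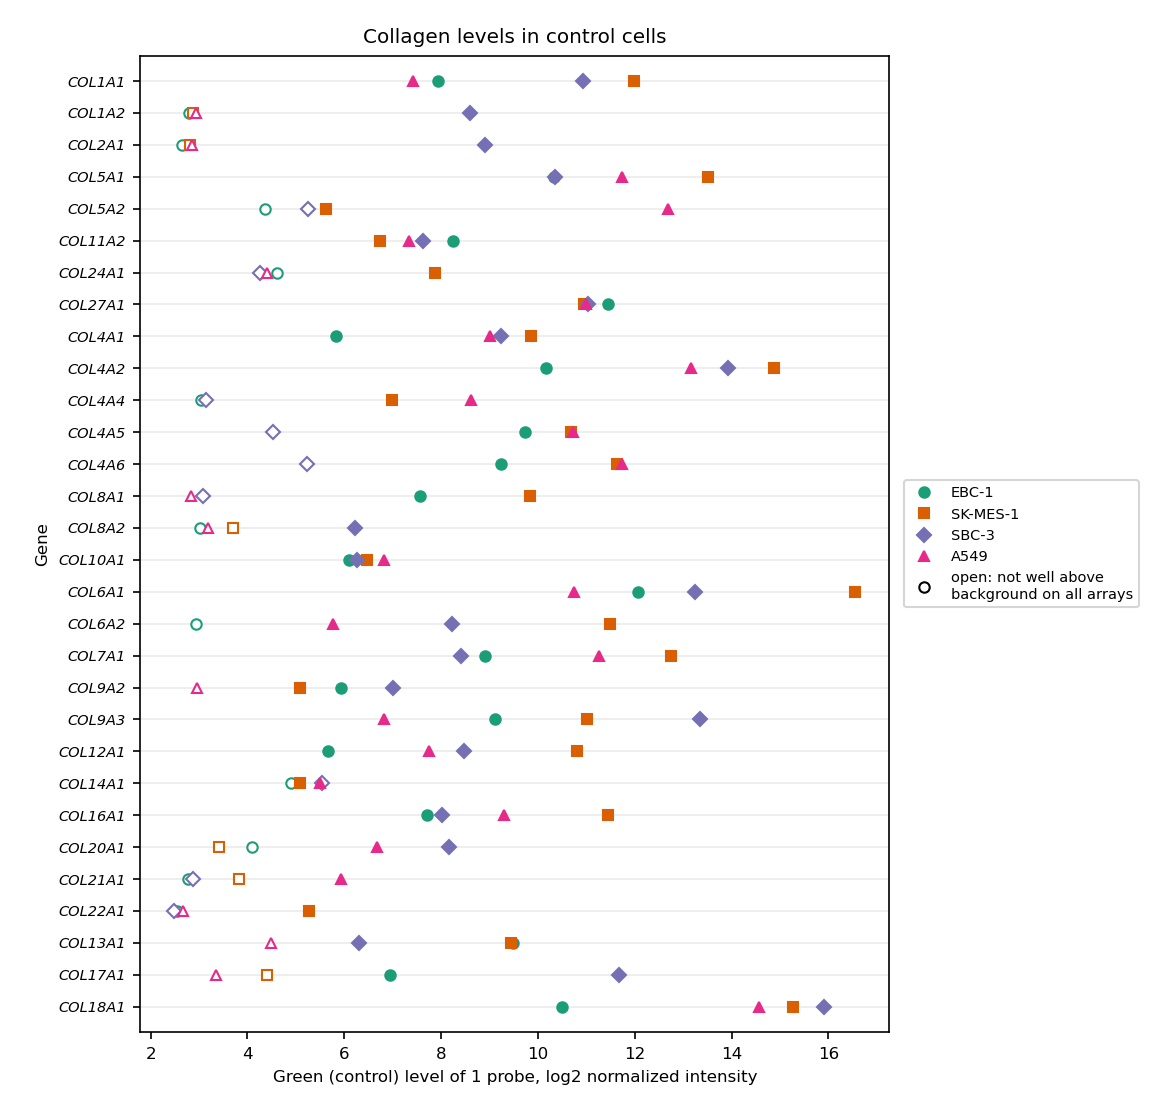
The green (control) level of the brightest probe of each collagen gene, as log2 normalized intensity, is shown for the 4 cell lines (markers and colors), with means over 3 arrays for SBC-3 and A549 and 1 array for EBC-1 and SK-MES-1. Open markers were not well above background on all arrays of the line, and levels can be compared within a row but not between genes. *COL5A2* stands far right in A549, *COL1A2* and *COL2A1* in SBC-3, and EBC-1 is leftmost for both *COL4A1* and *COL4A2*.

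SK-MES-1 cells had high levels of many matrix collagens. *COL6A1* was at 16.55 there, 9.90-fold above SBC-3 (13.25) and 56.2-fold above A549 (10.74), and *COL6A2* was at 11.49, 9.63-fold above SBC-3 and at least 77.3-fold above EBC-1. *COL12A1* was at 10.81 in SK-MES-1, 8.46 in SBC-3, 7.75 in A549 and 5.67 in EBC-1, a range of 35.4-fold. *COL1A1* was at 11.97 in SK-MES-1, 10.93 in SBC-3, 7.94 in EBC-1 and 7.42 in A549. *COL16A1* (11.44), *COL7A1* (12.75) and *COL5A1* (13.52) were also highest in SK-MES-1, by 4.38, 2.79 and 3.45-fold over A549. The dimmer probe of *COL16A1* differed little between 3 of the lines, at 7.28 in SK-MES-1, 7.16 in EBC-1 and 7.01 to 7.19 in A549. In SBC-3 it was at 5.59 to 6.03. *COL24A1* (7.88) and *COL22A1* (5.27) were detected in SK-MES-1 controls only, and *COL8A1* (9.83) in SK-MES-1 and EBC-1 (7.57). SK-MES-1 was also the line with the most fibroblast markers detected, 4 of 6 (*PDGFRA*, *PDGFRB*, *THY1* and *FAP*) with *DCN* and *LUM* not detected, against 2 in A549, 1 in EBC-1 and 0 in SBC-3.

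The type IV genes differed between lines by pair. *COL4A1* was at 9.87 in SK-MES-1, 9.23 in SBC-3, 9.0 in A549 and 5.83 in EBC-1, and *COL4A2* at 14.88, 13.93, 13.16 and 10.17 in the same order. The SBC-3 and A549 levels differed by less than the largest spread between control arrays for *COL4A1* and by more for *COL4A2*. *COL4A5* and *COL4A6* followed another pattern. They were at 10.72 and 11.74 in A549, 10.68 and 11.64 in SK-MES-1, and 9.73 and 9.23 in EBC-1. In SBC-3 neither was well above background on all arrays, and A549 was at least 46.3-fold and at least 77.9-fold higher. The A549 and SK-MES-1 levels of this pair differed by less than that spread. *COL4A4* was at 8.62 in A549 and 6.99 in SK-MES-1 and was not detected in the control of EBC-1 or SBC-3.

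SBC-3 cells had fibrillar collagens of another kind. *COL2A1* (8.91) and *COL1A2* (8.61) were detected in SBC-3 controls only, at least 12.9-fold and at least 10.4-fold above EBC-1, the line with the next highest limit. *COL8A2* (6.22) was the third gene detected only there. *COL17A1* was at 11.67, against 6.94 in EBC-1 (26.5-fold), and *COL9A3* at 13.35, against 11.02 in SK-MES-1 (5.03-fold). *COL18A1* was at 15.91 in SBC-3, 15.27 in SK-MES-1 and 14.57 in A549, and at 10.49 in EBC-1, 42.8-fold below SBC-3. *COL20A1* was at 8.16 in SBC-3 and 6.67 in A549 and was not detected with this probe in the other two.

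A549 cells stood out for *COL5A2*, at 12.69, which was 134-fold above SK-MES-1 (5.62) and at least 177-fold above EBC-1. Its neighbor *COL3A1* was detected in no line. *COL21A1* (5.94) was detected in A549 controls only. *COL10A1* was at 6.81 in A549 and between 6.10 and 6.47 elsewhere, and the brightest probe of *COL11A2* was highest in EBC-1 (8.23) and lowest in SK-MES-1 (6.73). Another of its 3 probes was highest in SK-MES-1 instead, at 7.53. That probe was at 7.22 in EBC-1, 6.77 to 7.27 in SBC-3 and 6.66 to 6.92 in A549. *COL27A1* differed least among these, from 10.95 in SK-MES-1 to 11.45 in EBC-1. *COL13A1* was at 9.48 (EBC-1) and 9.44 (SK-MES-1), levels that differed by less than the spread between control arrays, and was 6.30 in SBC-3 and not detected in A549.

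The lines' own markers were read beside these levels. Of 6 squamous markers, EBC-1 controls had 1 (*SOX2*) and SK-MES-1 controls 3 (*TP63*, *KRT14* and *SOX2*), and *KRT5*, *KRT6A* and *DSG3* were not detected in either line. SBC-3 controls had the neuroendocrine markers *NEUROD1*, *CHGA* and *SYP*, while *INSM1* and *NCAM1* were not detected, and they lacked *EPCAM* and *CDH1*. They also had *TP63* and *SOX2*. *CHGA* was detected in A549 controls as well, at 8.07 to 8.14 against 5.85 to 6.55 in SBC-3, and *NCAM1* in SK-MES-1 controls (8.38). A549 controls had all 5 epithelial markers and 1 of 5 alveolar type II markers (*NAPSA*) on all 3 arrays.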

How the data were processed

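Total RNA was hybridized to 8 2-colour Agilent arrays (design 072363, build hg19). The authors deposited scanner output of Agilent Feature Extraction 12.1.1.1 (protocol GE2_1200_Dec17), with background-subtracted and dye-normalized processed intensity for each channel and a log10 ratio of red over green per spot. They also deposited a value table of log ratios, which equalled the log10 ratios of the scanner files. The p-values of the software were not used. Here log2 ratios were computed from the deposited processed intensities. Control and outlier spots were dropped and repeat spots averaged. Probes marked as well above background in red, green or both were kept for that array, then averaged by gene. Of 50096 systematic names, 24782 matched a RefSeq symbol. Control levels used the green channel after Aquantile normalization.

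Arrays were grouped by their labels. All 8 arrays entered 1 fit in limma 3.58.1 (R 4.3.3) with 3 groups and 5 residual degrees of freedom. Each group mean was tested against 0, 2-sided, for genes with a value on all arrays of the group, with Benjamini-Hochberg adjustment over all genes tested and a threshold of 0.05. Tables were handled in Python 3.11.15 with pandas 2.3.3 and numpy 2.4.6. The array number limits the precision. On simulated data for the A549 arrays (15531 genes), the fit called 71 of 100 genes changed by 1 on the log2 scale and 93 of 100 changed by 2, with 9 false calls. For siDONSON (14454 genes) these were 74, 97 and 9, and for *miR-150-3p* (14230 genes) 61, 88 and 9. The simulated noise was independent and normal, with 1 spread per gene shared by all groups. The groups of the data differ in spread, so these rates need not hold for them.

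The collagen genes, the lists of processing and receptor genes and the cell type markers were chosen with earlier results of these data known. The detection of 1 of the markers is not reported here. Named with values were collagens that passed a test, were past 2-fold on an array with both channels above background, or were above background in green on all 8 arrays, and the chains that assemble with them. The other counted collagens were given in brief outside this rule, so that every gene is accounted for. Of the processing genes, those that passed a test or were past 2-fold on at least 2 arrays were named. Alternatives were normexp background correction (offset 50, on median spot signals, as the files used hold no mean signal column) with loess, median centring, other probe filters and summaries, the value table, other fits, leaving out each array and a replicate block. All arrays lay on 1 slide, so no slide block could be fitted.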

Additional observations from a re-analysis of the deposited data

How the results depend on the processing

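Settings changed the number of collagens called as follows, and the cause was not tested except where named. After *LOXL2* editing, 10 collagens were called. There were 21 without a filter on dim probes, where undetected genes also enter, 6 of 17 tested after subtraction of the other arrays, 8 with the replicate block and 5 to 7 with 1 array left out. After siDONSON, 1 was called, against 2 with median centring, with both channels required or with the brightest probe, 6 without the filter, 0 in its own fit, 5 (all lower) with the other arrays subtracted, and 0 to 1 with 1 array left out. *COL5A1* then turned to -0.80 (adjusted p = 0.0214) when the other arrays were subtracted. Its mean was 0.01 after siDONSON and 1.30 on the A549 arrays, which are among those subtracted. Of the other genes lower under this setting, *COL12A1*, *COL18A1* and *COL20A1* were also called higher in A549, and *COL16A1* was not. No share over all genes is given for this setting. Under normexp and loess the gene called after siDONSON was *COL4A2* instead of *COL10A1*. After *miR-150-3p*, 1 was called, against 0 without the filter, in its own fit or with the other arrays subtracted, 2 with both channels required, and 0 to 5 with 1 array left out. With the brightest probe the gene called was *COL16A1* instead of *COL12A1*. Past 2-fold, normexp and loess left 1 of 4 genes in EBC-1 and 0 of 2 in SK-MES-1. Under the replicate block siDONSON had 0 calls. The replicate numbers are shared numbers only, since same-numbered arrays of SBC-3 and A549 correlated at -0.022, -0.025 and -0.012 in their deviations, and no pairing was assumed. With median centring, 45.4% of the called genes after siDONSON were higher, against 55.6%. Among single named genes, 863 values kept their side of the threshold, 31 lost the call, 19 gained it and 1 was called with the other sign. Values that kept their side could still change sign. *COL4A1* after siDONSON was at -0.51 with the other arrays subtracted, against 0.53, and was called in neither. A fit with 4 groups gives no *miR-150-3p* mean.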

Other observations

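Probes of a collagen gene did not always give one value. Of 57 pairs of a gene and an array with more than 1 counted probe, 14 differed beyond the software's error, and 9 of these had opposite signs. One of these 9, *COL12A1* on siDONSON-2, includes a probe counted through red alone, so its sign is not settled. *COL11A2* on siDONSON-1 ranged from -0.26 to 0.79 over 3 probes, and *COL5A1* there was at -0.24 and 0.81. Of the 9 pairs, 8 were on SBC-3 arrays and 1, *COL16A1* (0.23 and -0.50), was on A549-GE1.

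The green channels of one line differed less between arrays than the red channels. The SD of the difference was 0.115 to 0.130 in green and 0.373 to 0.509 in red for SBC-3, and 0.0814 to 0.0896 and 0.137 to 0.194 for A549, over probes with a mean log2 level above 8.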
